A study of Rattus norvegicus with 6 samples.

Results

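Elastic fibre proteins and the enzyme that crosslinks them were followed in rat liver scarred after ligation of the bile duct, which stops bile from leaving the liver. The set was 10 named genes: Eln, Fbn1, Fbln1, Fbln2, Fbln5, Mfap4, Efemp1, Emilin1, Lox and Loxl1. It was read through every array probe whose accession belongs to 1 of these genes in the RefSeq gene table, which gave 10 probes for 8 of the genes, among 30367 probes and 15443 named genes in all. No probe was matched to Fbln2 or Lox, which are not analysed here.

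The study compared 3 normal rat livers with 3 fibrotic livers taken after the bile duct had been tied off, with 1 single-colour (Cy3) Agilent array per rat, numbered apart in the labels, and total RNA from blocks of tissue. Strain, sex, age and the time since ligation are not given in the sources used here, and the controls are labelled only as normal liver. Arrays were numbered within a group in the order of their records, so the numbers pair no animals. All 12 hepatocyte markers tested, albumin among them, were above background on all 6 arrays.

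Elastic fibres let a tissue stretch and recoil. They form when soluble tropoelastin, the product of Eln, is laid on a scaffold of fibrillin microfibrils with the help of fibulins and other small glycoproteins, and is then made insoluble by lysyl oxidases that crosslink its lysines. In normal liver they lie mainly in portal tracts and vessel walls, and they gather in the septa of old scars.

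Values are given as the signal in percent of the array's own 75th percentile (the 75th percentile of all spots other than controls), so that 100% is a bright probe. Log2 differences are fibrosis minus normal with their standard error, and p-values are limma's, adjusted over all tested probes. A probe was called at an adjusted p under 0.05. Probes differ in brightness for the same amount of RNA, so levels of different probes were not ranked. Where 2 probes of a gene are set against each other, only the change of their gap between groups is read, and a summed signal of a list weights its genes by the brightness of their probes. Spots that the scanner software marked as uneven or as outliers were left out unless stated, and between 18.8% and 35.2% of spots per array were marked. In bulk tissue, more cells of a type and more RNA per cell cannot be told apart.

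Of the 10 probes, 7 probes of 5 genes could be tested with marked spots left out, of which 5 probes of 4 genes were higher in fibrosis and 0 were lower. Among all 12620 tested probes, 15.2% were called higher and 4.83% lower. With marked spots kept, 9 probes of 7 genes were tested, 7 probes of 6 genes were higher and 0 lower, against 12.4% higher and 6.79% lower of 19731 probes. At an unadjusted p under 0.05, limma likewise gave 0 lower probes in either setting. With marked spots kept, the fibrotic and normal values of 7 of the 9 tested probes did not overlap, all 7 higher in fibrosis, where 19.1% of all tested probes stood apart in that direction. With marked spots left out, 23.8% of the tested probes with a value on all 6 arrays did so. Mfap4, Fbln1 and 1 Emilin1 probe passed the filter on dim probes only through the fibrotic group, so their place among the tested probes was itself tied to a higher level there. The rises were those of Loxl1, Eln, Mfap4, Fbn1, Fbln1 and Emilin1. Efemp1, Fbln5 and the second Eln probe did not pass the test or were not tested.

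**Figure D1:**
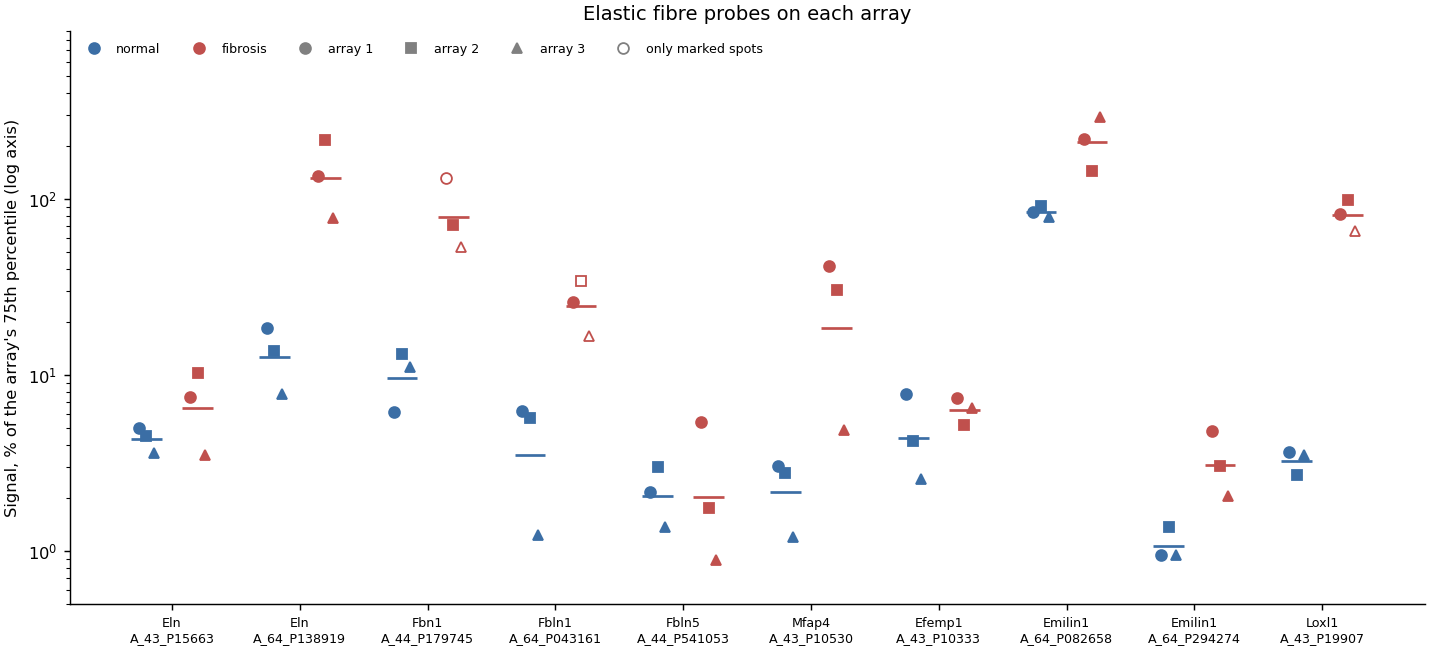
Signal of the 10 elastic fibre probes on each array, in percent of the array's 75th percentile on a log axis, with marked spots kept; bars are group means of log2 values (3 arrays each) and open symbols are arrays on which every spot of the probe was marked. The groups stand apart for the brighter Eln probe, Fbn1, Fbln1, Mfap4, both Emilin1 probes and Loxl1, and overlap for the dimmer Eln probe, Fbln5 and Efemp1.

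Elastin itself, the elastic core of the fibre, was read by 2 probes that gave different answers. The brighter probe, A_64_P138919, stood at 18.5%, 13.8% and 7.80% of the 75th percentile in normal livers 1 to 3 and at 135%, 216% and 77.9% in fibrotic livers 1 to 3. The lowest fibrotic liver lay above the highest normal one, and the difference was 3.38 ± 0.45 on the log2 scale, or 10.4-fold (limma adjusted p = 0.0014). This probe was called under all 18 alternatives, at 3.02 to 3.76.

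The dimmer Eln probe, A_43_P15663, stood at 5.03%, 4.50% and 3.58% in normal livers and at 7.52%, 10.3% and 3.52% in fibrotic livers. Fibrotic liver 3 lay just below the lowest normal liver, so the groups overlapped. The difference was 0.58 ± 0.40 (limma adjusted p = 0.364), and it passed the test without fibrosis array 3, at 1.02 (adjusted p = 0.0404), and with array weights and marked spots kept, at 0.83 (0.0234).

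On every array the 2 Eln probes could be set against each other, which removes the array's own scale. The log2 gap between the brighter and the dimmer probe was 1.88, 1.61 and 1.12 in normal livers and 4.16, 4.39 and 4.47 in fibrotic livers. The gap was thus wider in each fibrotic liver than in any normal one, by 2.80 on average (exact permutation test, two-sided p = 0.10, the smallest that 3 against 3 arrays allow). Both probes carry the same Eln accession, and where on the transcript each one binds is not given in the files used here.

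Emilin1, a glycoprotein at the boundary between elastin and microfibrils, also had 2 probes, and both were called higher. The brighter one, A_64_P082658, stood at 84.1%, 91.0% and 79.4% in normal livers and at 218%, 145% and 294% in fibrotic livers, a difference of 1.31 ± 0.30 (limma adjusted p = 0.0184). The dimmer one, A_64_P294274, stood at 0.946%, 1.37% and 0.952% in normal livers, where it was above background on 1 of 3 arrays, and at 4.80%, 3.04% and 2.05% in fibrotic livers, a difference of 1.53 ± 0.35 (adjusted p = 0.0184). Neither probe's groups overlapped. Among the fibrotic livers the probes ran in different orders: liver 3 was the highest on the brighter probe and the lowest on the dimmer one. The gap between the Emilin1 probes differed by -0.22 on average in fibrotic against normal livers (exact permutation test, two-sided p = 0.80). Because the dimmer probe was near background in normal livers, this comparison cannot show whether the probes changed alike.

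**Figure D2:**
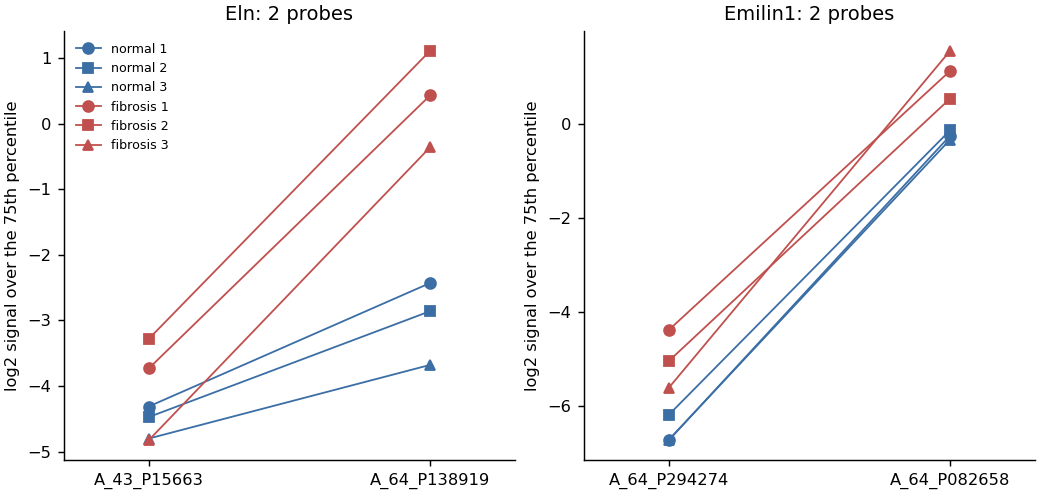
The 2 probes of Eln (left) and of Emilin1 (right) on each of the 6 arrays, as log2 signal over the array's 75th percentile; each line joins the dimmer and the brighter probe on 1 array. For Eln the 3 fibrotic lines are steeper than the 3 normal lines, with gaps of 4.16 to 4.47 against 1.12 to 1.88, and for Emilin1 the dimmer probe was above background on 1 of 3 normal arrays, so its normal slopes are not read.

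The Emilin1 calls were modest in size. The brighter probe kept its direction but missed the threshold without normal array 1 (1.31, limma adjusted p = 0.0577), 2 (1.36, 0.0555) or 3 (1.27, 0.0779), without fibrosis array 1 (1.29, 0.0541), with the array median as the scale (0.96, 0.0568) and with the slide row as a block (1.37, 0.129). The dimmer probe missed it without normal array 1 (1.44, adjusted p = 0.0629) or 3 (1.44, 0.0744), without fibrosis array 1 (1.21, 0.0501) and with normexp background correction (0.43, 0.297). It also missed the threshold with marked spots kept under quantile normalization (1.11, adjusted p = 0.0513).

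Fbn1 encodes fibrillin-1, the main protein of the microfibril scaffold. With marked spots kept it stood at 6.16%, 13.1% and 11.1% in normal livers and at 132%, 71.1% and 53.6% in fibrotic livers, so the lowest fibrotic liver lay well above the highest normal one. The difference was 3.04 ± 0.41, or 8.24-fold (limma adjusted p = 0.0018), and it was called under all 17 alternatives run with marked spots kept, at 2.68 to 3.77. Both Fbn1 spots were marked on fibrosis arrays 1 and 3, so no test was possible with marked spots left out.

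Mfap4, a microfibril-associated glycoprotein that binds elastin and collagen, varied most among the fibrotic livers. It stood at 3.05%, 2.76% and 1.20% in normal livers, above background on 2 of 3 arrays, and at 41.9%, 30.5% and 4.89% in fibrotic livers. Fibrotic liver 3 was thus far below the other fibrotic livers, though still above every normal liver. The difference was 3.09 ± 0.77, or 8.51-fold (limma adjusted p = 0.0247), with an SD among fibrotic livers of 1.67 on the log2 scale.

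Single arrays decided the Mfap4 call. It missed the threshold without normal array 2 (3.26, limma adjusted p = 0.0556) or 3 (2.67, 0.0818) and without fibrosis array 1 (2.50, 0.0656) or 2 (2.73, 0.0752). It was 4.05 (0.00107) without fibrosis array 3, and normexp background correction lowered it to 2.02 (0.015). The call was also lost, when marked spots were kept, without normal array 1 (3.34, adjusted p = 0.0527) and with the slide row as a block (4.28, 0.0551).

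Of the fibulins in the set, Fbln1 was called higher, Efemp1 was not called and Fbln5 was too dim to be tested; differences between them were not tested. Fibulin-1, the product of Fbln1, is a calcium-binding glycoprotein found in elastic fibres and basement membranes. With marked spots kept, Fbln1 stood at 6.27%, 5.73% and 1.22% in normal livers, above background on 2 of 3 arrays, and at 26.1%, 34.3% and 16.7% in fibrotic livers, with no overlap. The difference was 2.80 ± 0.61, or 6.98-fold (limma adjusted p = 0.0155). It missed the threshold with the slide row as a block (2.88, adjusted p = 0.147) and was 1.77 (0.0107) with normexp. Of the fibrosis arrays, only array 1 had an unmarked Fbln1 spot, so no test was possible with marked spots left out.

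Efemp1 encodes fibulin-3, a short fibulin of the extracellular matrix. It stood at 7.78%, 4.19% and 2.57% in normal livers and at 7.38%, 5.21% and 6.47% in fibrotic livers, so every fibrotic value lay within the range of the normal ones. The difference was 0.52 ± 0.40 (limma adjusted p = 0.420), and no alternative brought it past the threshold, at 0.07 to 0.94. Fbln5 encodes fibulin-5, which ties elastin to microfibrils and to cell-surface integrins. It stood at 2.16%, 2.99% and 1.37% in normal livers and at 5.39%, 1.76% and 0.888% in fibrotic livers, with the highest and the lowest value both in fibrotic livers. It was above background on 2 of 3 arrays in each group and so was not tested by the filter. Without the filter its difference was -0.02 ± 0.62 (adjusted p = 0.988).

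Loxl1, a lysyl oxidase that crosslinks tropoelastin and binds fibulin-5, rose most of the set. It stood at 3.64%, 2.70% and 3.50% in normal livers and, with marked spots kept, at 82.6%, 99.3% and 65.5% in fibrotic livers. The groups were narrow and far apart: the SD on the log2 scale was 0.23 among normal and 0.30 among fibrotic livers. The difference was 4.64 ± 0.26, or 25.0-fold (limma adjusted p = 4.90e-05), and 4.75 ± 0.29 with marked spots left out, when fibrosis array 3 had no value (adjusted p = 9.50e-05). Of all probes tested with marked spots kept, 0.502% had a larger difference. Loxl1 was called in every alternative that could test it, at 3.96 to 5.07 over 16 settings with marked spots left out and 3.85 to 4.95 over 17 with them kept.

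The sequence upstream of Loxl1 is shown because, of the windows found for the set, only this one lies wholly outside the annotated gene. It is the 250 bases before the annotated start, chr8:67612225-67612474, minus strand, RefSeq, build GRCr8, printed 5′ to 3′ along the gene, with matches to searched motifs in capitals.
Loxl1: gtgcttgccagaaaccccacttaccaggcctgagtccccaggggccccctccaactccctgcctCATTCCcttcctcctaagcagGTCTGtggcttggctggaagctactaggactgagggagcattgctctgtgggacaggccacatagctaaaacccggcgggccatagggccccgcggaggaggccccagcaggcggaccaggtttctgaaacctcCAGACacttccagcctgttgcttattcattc
The motifs searched, on both strands, were the TATA box (TATAAA), GC box (GGGCGG), SMAD box (CAGAC), TEAD site (CATTCC), AP-1 site (TGACTCA) and E-box (CACGTG). The Loxl1 window held 2 SMAD box matches, 31 and 165 bases before the start, and 1 TEAD match, 186 bases before it. Of 33469 windows of this length, 42.9% held the SMAD box letters and 12.1% the TEAD letters, so neither match is rare. The RefSeq table gave windows for 5 of the 10 genes. The windows of Fbn1, Fbln5 and Efemp1 also held CAGAC and that of Fbln2 did not, and none of the 5 held TATAAA, which 12.9% of all windows did. Those 4 windows reach into the annotated gene and are not printed. A match is a run of letters and not a binding site.

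The ranks and SDs of the 10 probes in this paragraph were taken with marked spots kept. Fibrotic liver 3 was the lowest of the fibrotic livers for 8 of the 10 probes, where 39.5% of all tested probes had their lowest fibrotic value on that array. The exceptions were Efemp1 and the brighter Emilin1 probe, which were lowest in fibrotic liver 2. The brighter Emilin1 probe was highest in fibrotic liver 3. Normal liver 3 was the lowest normal liver for 7 of the 10 probes, against 32.1% of all tested probes. The median SD of the 10 probes on the log2 scale was 0.57 among normal and 0.64 among fibrotic livers, and over all tested probes 0.23 and 0.42. All 6 arrays lay on 1 slide in 1 scan. Fibrosis array 1 shared the first row of the slide with the normal arrays, and fibrosis arrays 2 and 3 lay in the second. With the row as a block, which sets fibrosis array 1 against the normal arrays, Loxl1 was 4.67 (limma adjusted p = 0.00345), the brighter Eln probe 3.42 (0.0282) and, with marked spots kept, Fbn1 3.77 (0.00903).

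**Figure D3:**
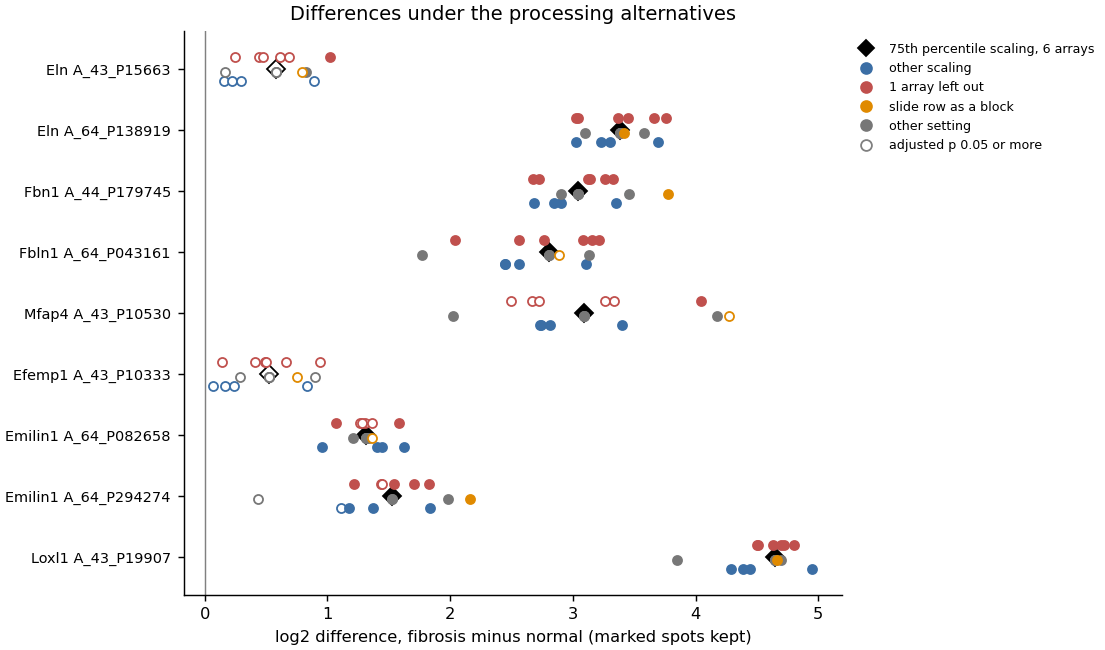
Log2 differences, fibrosis minus normal, of the 9 tested probes with marked spots kept (diamonds) and under the alternatives (circles, coloured by kind); open symbols did not reach an adjusted p under 0.05. All values lie above 0; Loxl1, the brighter Eln probe and Fbn1 stay filled throughout, while Mfap4 and both Emilin1 probes turn open under several alternatives.

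The balance of higher and lower probes over the whole array depended on the scaling, but no difference of a tested elastic fibre probe changed sign. Higher and lower probes numbered 1915 and 610 in the main setting, 1420 and 1150 after quantile normalization, 1440 and 1678 when the array median set the scale, and 2195 and 172 under spike-in scaling. The median difference of all probes was -0.01, -0.20, -0.38 and 0.31 in the same order.

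The proteins that build or surround the fibre were read from further lists. Across the 6 lists, 54 of 75 genes were tested with marked spots kept, of which 22 rose and 2 fell. By probe, 26 of 70 were higher and 2 lower, where 12.4% and 6.79% of all tested probes were. Among the higher ones, the probes of Vcan and Mmp7 were not above background on every normal array. They passed the filter on dim probes only through the fibrotic group, so their testing was tied to a higher level there. With marked spots left out, 35 genes were tested, of which 11 rose and 1 fell. Values of list genes below are with marked spots kept. With marked spots left out, the called genes Efemp2, Ltbp1, Ltbp2, Vtn, Loxl2, Mmp2, Mmp12, Timp1, Serpinb1a, Itgb6 and Tgfb3 were not tested. Nor were the called markers Mgp, Pdgfrb, Rgs5, Krt7, Krt8, Krt19, Epcam, Sctr, Cd14 and G6pc1. The medians of the 6 lists in that setting were 0.26, -0.06, -0.13, 1.49, 1.07 and 0.06, in the order given below. The median of all tested probes was -0.01 there.

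Other fibre components rose in part. Of 9 genes tested, 5 rose and 2 fell, at a median difference of 2.14 where the median of all tested probes was -0.10 (2 and 1 of 5 genes with marked spots left out). Fbn2, the fibrillin typical of developing tissue, stood at 5.28%, 3.58% and 3.08% in normal livers and at 91.9%, 63.7% and 80.2% in fibrotic livers, a difference of 4.33 ± 0.29 (limma adjusted p = 7.33e-05). Ltbp2, a microfibril protein of the latent TGF-beta binding family, differed by 3.95 ± 0.32 (0.000146). Efemp2, or fibulin-4, which brings lysyl oxidase to tropoelastin, differed by 3.00 ± 0.27 (0.000232). Efemp2 is thus a fibulin that was called, next to Efemp1, which was not; the difference between them was not tested.

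The falls were those of Adamtsl4, a microfibril-binding glycoprotein, and Vtn, the plasma protein vitronectin that hepatocytes make. Adamtsl4 was at -1.20 ± 0.28 (limma adjusted p = 0.0188) and missed the threshold with spike-in scaling (-0.89, adjusted p = 0.195), without normal array 1 (-1.14, 0.0724) or 3 (-1.13, 0.0936) and with the slide row as a block (-0.85, 0.271). Vtn was at -0.88 (0.0473) and was called in only 5 of 17 alternatives. Among those that lost its call were quantile normalization (-0.35, 0.404), cyclic loess (-0.17, 0.732), spike-in scaling (-0.57, 0.372) and normexp (-0.63, 0.145). The Vtn call was also lost without any 1 of the 6 arrays (-1.05 to -0.71, adjusted p 0.0663 to 0.215).

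Of 8 other lysyl oxidases, their activating proteases and copper carriers, 2 rose and 0 fell, at a median of 0.10. That is 2 of 12 probes, a share near the 12.4% called higher over all tested probes. Loxl2 stood at 32.5%, 30.4% and 25.9% in normal livers and at 139%, 101% and 157% in fibrotic livers, a difference of 2.14 ± 0.26 (limma adjusted p = 0.00103). Loxl3 differed by 1.82 ± 0.29 (0.00359) and missed the threshold with the slide row as a block (1.72, 0.0702). Both are lysyl oxidases of the group with scavenger receptor domains. Loxl4, at 0.39 and 0.38 on its 2 probes, did not pass.

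Of 9 proteases that can cut elastin or fibrillin, 3 rose and 0 fell, at a median of 0.91. Mmp12, the macrophage elastase, stood at 2.34%, 1.96% and 1.88% in normal livers and at 176%, 277% and 85.1% in fibrotic livers, a difference of 6.29 ± 0.41 (limma adjusted p = 7.04e-05). Mmp7, or matrilysin, above background on 2 of 3 normal arrays, differed by 3.52 ± 0.32 (0.00027), and Mmp2, or gelatinase A, by 2.58 ± 0.49 (0.00857) and 2.15 ± 0.32 (0.00259) on its 2 probes, the first of which missed the threshold with the row block (3.08, 0.0524). Elane, Prtn3, Ctsg, Mmp3 and Mmp9 were too dim to be tested.

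Of 8 protease inhibitors, 4 rose and 0 fell, at a median of 1.83. At an unadjusted p under 0.05, limma gave 6 higher and 1 lower of 10 probes. Serpina1 stood at -0.61 and was not called, and over 17 alternatives it ran from -0.96 to 0.12, with 3 calls. A2m, the broad inhibitor alpha-2-macroglobulin, differed by 3.98 ± 0.37 (limma adjusted p = 0.000276) and 3.86 ± 0.31 (0.000142) on its 2 probes. Serpinb1a, an inhibitor of neutrophil elastase, differed by 2.55 ± 0.35 (0.0018) and 2.17 ± 0.27 (0.00105), and Timp1, an inhibitor of metalloproteinases, by 2.42 ± 0.26 (0.000574).

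Of 14 receptors and binding partners, 5 rose and 0 fell, at a median of 0.90. Itgb6, a subunit of the epithelial integrin that activates latent TGF-beta, differed by 5.02 ± 0.34 (limma adjusted p = 8.38e-05). Vcan, or versican, a proteoglycan that binds fibulins and fibrillin, was not above background in any normal liver and was at least 14.1-fold and at least 13.4-fold higher in fibrosis on its 2 probes. Those bounds hold for the processed signals, and with normexp the differences of the 2 probes were 2.80 and 2.72 on the log2 scale. Itga8, a subunit of an integrin that binds RGD proteins of the matrix, differed by 3.14 ± 0.40 (0.00122) on 1 probe and by 1.20 on the other, which did not pass.

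Of 6 TGF-beta ligands and receptors, 3 rose and 0 fell, at a median of 0.27, and the 3 were the ligands. Tgfb2 differed by 3.36 ± 0.42 (limma adjusted p = 0.00115) on 1 probe and stood at -0.62 on another, Tgfb3 by 3.05 ± 0.41 (0.00178) and Tgfb1 by 1.79 ± 0.28 (0.00321), the last of which missed the threshold with the row block (1.52, 0.0754). The second Tgfb2 probe ran from -1.05 to -0.31 over 16 alternatives and was called lower in 4 of them. At an unadjusted p under 0.05, limma gave 3 higher and 1 lower of the 8 probes of this list. TGF-beta is known to induce genes of the elastic fibre and is held in the matrix by proteins that bind fibrillin.

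**Figure D4:**
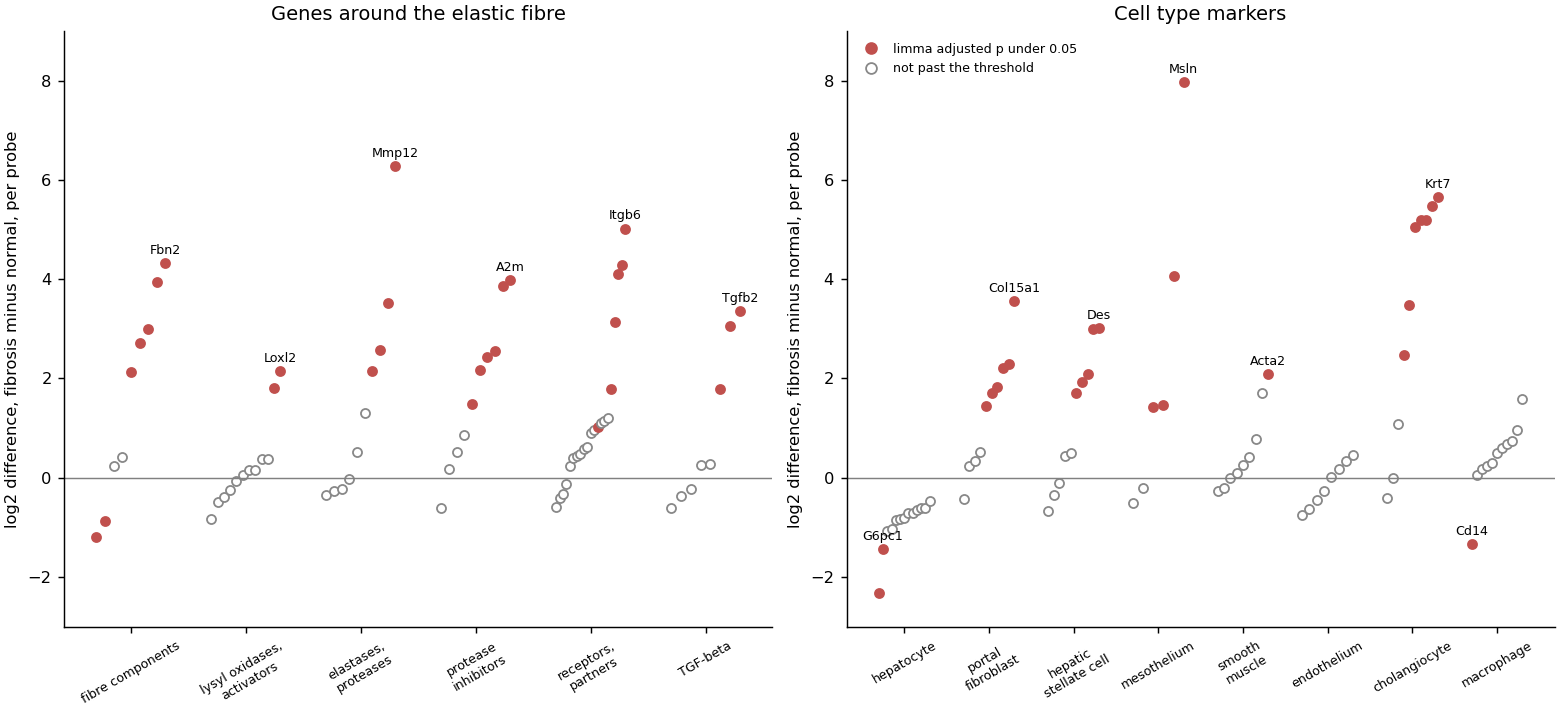
Log2 differences, fibrosis minus normal, per tested probe in the lists around the elastic fibre (left) and in the cell type marker lists (right), with marked spots kept; filled points passed a limma adjusted p under 0.05 and the probe with the largest called value of each list is named. Mmp12 lies at 6.29 and Itgb6 at 5.02 on the left; Msln at 7.98 and Krt7 at 5.65 on the right were above background on 1 of 3 normal arrays each, and no endothelial probe passed.

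Markers of cells that can make elastic fibres moved with these genes in part. Counts by cell type are of genes unless stated, where a gene counts if 1 or more of its probes was called. By probe they are to be read against the 12.4% of all tested probes that were higher and the 6.79% that were lower. Higher were 6 of 10 portal fibroblast, 5 of 10 stellate cell, 4 of 6 mesothelial and 7 of 10 cholangiocyte probes. Of endothelial, macrophage and hepatocyte probes 0 were higher, and 1 of 11 macrophage and 2 of 13 hepatocyte probes were lower. The called Col15a1 and Krt7 probes passed the filter only through the fibrotic group. Of 7 portal fibroblast markers tested, 4 rose and 0 fell, and their summed signal ran from 389% to 455% of the 75th percentile in normal livers and from 1157% to 1526% in fibrotic livers. Col15a1, above background on 2 of 3 normal arrays, differed by 3.56 ± 0.54 (limma adjusted p = 0.00297), Mgp by 2.28 ± 0.26 (0.000769) and Entpd2, an ecto-enzyme of portal fibroblasts, by 2.21 ± 0.26 (0.000823) and 1.71 ± 0.29 (0.005) on 2 of its 3 probes. With the row block, Col15a1 (3.06, adjusted p = 0.0751) and the second Entpd2 probe (1.61, 0.0869) missed the threshold. Thy1, a defining marker, was above background in 0 normal and 2 fibrotic livers, and Cd34 in none. Of 10 hepatic stellate cell markers, 5 rose and 0 fell, among them Des at 3.01 ± 0.29 (0.000314), Cygb at 2.99 ± 0.40 (0.0017) and Pdgfrb at 2.10 ± 0.27 (0.00146), with a summed signal of 1358% to 1613% in normal and 1504% to 1982% in fibrotic livers. Gfap was not above background on any array.

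Of 5 mesothelial markers, 4 rose and 0 fell, among them Msln at 7.98 ± 0.46 (limma adjusted p = 4.9e-05) and Wt1 at 4.06 ± 0.52 (0.00133) on 1 probe and -0.51 on another. The called Msln and Wt1 probes were above background on 1 of 3 normal arrays and so passed the filter through the fibrotic group; over the alternatives their differences ran from 6.20 to 8.36 and from 2.40 to 4.63. The summed signal of the 5 mesothelial markers ran from 226% to 268% in normal and from 748% to 1032% in fibrotic livers. Krt8, another of those called, gave most of the normal sum, at 159%, 138% and 128% in normal livers 1 to 3. It stood at 425%, 411% and 340% in fibrotic livers 1 to 3. Of 9 cholangiocyte markers, 7 rose and 0 fell, with summed signals of 125% to 147% and 924% to 1094%. Of 6 smooth muscle markers, 1 rose (1 of 9 probes, a share near that of all tested probes), Acta2 at 2.08 ± 0.57 (0.0377), which missed the threshold with quantile normalization (1.74, adjusted p = 0.0859) and cyclic loess (1.88, 0.0586), without normal array 1 (2.29, 0.0677), 2 (2.09, 0.103) or 3 (1.87, 0.138) and with the row block (1.26, 0.431). In all, Acta2 was called in 10 of 17 alternatives. The summed signals of the smooth muscle markers were 134% to 143% and 221% to 566%. With marked spots left out, 2 of 8 smooth muscle probes were higher, where 15.2% of all tested probes were. The second was Tagln at 2.30 ± 0.49 (limma adjusted p = 0.0215), with values on 2 arrays of each group. It was not called with marked spots kept. Of 7 endothelial markers, 0 rose and 0 fell by limma, and at an unadjusted p under 0.05 it gave 0 higher and 1 lower of 8 probes, with summed signals of 1392% to 1469% and 891% to 1190%. Of 10 macrophage markers, 0 rose and 1 fell by limma, while the median of the list was 0.50 and 2 of 11 probes were higher and 1 lower at an unadjusted p under 0.05. The fall was that of Cd14 at -1.33 ± 0.28 (0.014; lost without normal array 2, at -1.23, or 3, at -1.21, under spike-in scaling, at -1.02, and with the row block, at -1.13), with summed signals of 1659% to 2102% and 2243% to 2555%. Of 12 hepatocyte markers, 0 rose and 1 fell by limma, at a median of -0.82, and 0 of 13 probes were higher and 8 lower at an unadjusted p under 0.05. The fall was that of G6pc1 at -2.33 and -1.43 on its 2 probes (-1.81 and -1.43 with the row block, which neither passed), with summed signals of 18156% to 19778% and 9909% to 14135%. The part of any of these cell types in the elastic fibre differences was not tested.

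The genes whose profile over the 6 arrays lay closest to that of the brighter Eln probe, by the root mean square difference of log2 values each centred on its own mean, were Tspan11 (0.187), Bcat1 (0.193), Ppic (0.236), Nnat (0.276) and Bex2 (0.281), among 6114 named probes with a value on every array. Among those closest to Loxl1, with marked spots kept and among 12625 named probes, were Tmem169 (0.185), Fbxo16 (0.190), Col9a2 (0.237) and Radx (0.240). These distances are a description, and most of each profile is the step between the groups.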

How the data were processed

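Total RNA of 3 normal and 3 fibrotic rat livers was measured on 6 arrays, 1 per animal. Each deposited table gives intensity per spot, linear and single-channel, from Agilent Feature Extraction 11.5.1.1, per the file headers, with no normalization between arrays recorded. The smallest processed signal was above 0 on each array although background-subtracted values fell below 0. Raw foreground and background medians were used for normexp (offset 50), since mean foreground signals were not used here.

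Log2 processed signals of 58717 non-control spots per array were scaled by each array's 75th percentile, which ran from 3755 to 6401. There were 0 saturated spots. Where a probe had several unmarked spots, their mean was used. Probes entered the test if at least 0.5 of their spots were well above background on all arrays of 1 group that had a value and they had values on at least 2 arrays of each group. Groups were compared with limma 3.58.1 in R 4.3.3, probe by probe, with Benjamini-Hochberg adjustment over all tested probes. The fit was also run on simulated data with 12620 probes, of which 50 were changed at each size. The share of changed probes recovered was 14% at a log2 difference of 1, 50% at 2, 76% at 3 and 94% at 4, with 8 false calls. Far fewer probes were changed there than were called in the data, so these shares do not give the power of this comparison. Precision is limited by the number of arrays, 3 in each group.

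Accessions named 18355 probes through the RefSeq gene table of assembly GRCr8. The members and gene lists were chosen with earlier results of these data known. The text names every member probe and, for each list, up to 3 called genes with the largest difference, with a few others chosen after their values were seen. For the brighter Eln probe and for Loxl1 it names genes from the 5 nearest profiles, of which 1 is not reported here. Planned protein features were not analysed here. The alternatives with marked spots kept beside another change were chosen after seeing the data.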

Additional observations from a re-analysis of the deposited data

How the results depend on the processing

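Of 268 comparisons of a single probe's difference with its main value, 235 kept their direction and side of the threshold, 30 lost the call, 3 gained it and 0 changed sign. The cause was not tested, except that leaving out an array leaves fewer arrays to test.

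With marked spots left out, probes called higher (1915) numbered 1166 when all 6 arrays had to be above background, 972 with the slide row as a block, and 1228 to 2149 with 1 array left out. Probes called lower (610) numbered 1150 after quantile normalization, 1678 when scaled by the array median, 172 with spike-in (E1A) scaling, 1339 with marked spots kept, 323 with no filter, 128 with the row block, and 201 to 684 with 1 array left out. Elastic fibre probes called higher (5) numbered 3 under the filter on all 6 arrays and 1 to 6 with 1 array left out, the 1 being the brighter Eln probe without fibrosis array 1, when Loxl1 had too few unmarked arrays to be tested and Mfap4 and both Emilin1 probes missed the threshold. Pathway probes called higher (12) numbered 26 with marked spots kept and 9 to 16 with 1 array left out. Pathway probes called lower (1) numbered 3 with the array median, 2 with quantile normalization, cyclic loess, trend and robust settings, array weights or marked spots kept, 0 with E1A scaling, no filter or the row block, and 0 to 3 with 1 array left out.

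With marked spots kept, probes called higher (2439) numbered 1020 with the row block and 1514 to 2851 with 1 array left out. Quantile normalization gave 1905 higher and 1714 lower, the array median 1890 and 3884, and E1A scaling 2770 and 357. Probes called lower (1339) numbered 799 with no filter, 3580 with array weights, 178 with the row block and 450 to 1620 with 1 array left out. Elastic fibre probes called higher (7) numbered 4 under the filter on all 6 arrays, 4 with the row block and 4 to 8 with 1 array left out. Pathway probes called higher (26) numbered 25 to 35 with 1 array left out. Pathway probes called lower (2) numbered 6 with the array median, 8 with array weights, 4 with trend and robust settings, 1 with normexp or no filter, 0 with E1A scaling or the row block, and 0 to 3 with 1 array left out.

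No paired analysis was possible because the labels give no replicate numbers shared between the groups. Fbln5 was above background on 2 arrays of each group and the dimmer Emilin1 probe on 1 normal array, so signal over background limits both.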
